A study of Mus musculus with 9 samples.

Results

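The genes described here are the interferon receptors, the JAK kinases they use, the transcription factor Stat3 and a pair of SOCS brakes. They were chosen by name from the deposited expression table: Ifnar1, Ifnar2, Ifngr1, Ifngr2, Jak1, Jak2, Tyk2, Stat3, Socs1 and Socs3, 10 of its 55536 genes. All 10 were found, and none was at 0 TPM (a transcript level scaled by gene length and library total) in any library. The study profiled RNA of mouse acute myeloid leukemia (AML) cells in 9 libraries. All 3 groups carry the MLL-AF9 fusion and GFP, which came from one retroviral vector (MSCV-MLL-AF9-GFP), and the cells it entered were c-kit+ and of WT or IRF7-/- genotype. In the IRF7-/- mice, a PGK-beta-geo cassette replaces part of the Irf7 gene, which encodes an interferon-induced transcription factor. GFP+ leukemia cells were transplanted into C57BL/6J mice of 6 to 8 weeks that had not been irradiated, at 1000000 cells a mouse, and bone marrow was taken on day 18 and sorted by c-kit. This gave AML-WT-c-kit- cells (3 libraries), AML-WT-c-kit+ cells (3 libraries) and cells labelled AML-IRF7-/--c-kit+ (3 libraries). The receptor kinase c-kit is carried by immature blood and leukemia cells. No IRF7-/- c-kit- library was analysed here, so every comparison of genotype is within c-kit+ cells. The groups are called WT c-kit-, WT c-kit+ and the labelled knockout from here on.

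Type I interferon binds the receptor chains IFNAR1 and IFNAR2, which carry the kinases TYK2 and JAK1, and interferon gamma binds IFNGR1 and IFNGR2, which carry JAK1 and JAK2. The activated kinases phosphorylate STAT proteins, which enter the nucleus and switch on target genes. STAT3 mainly serves cytokines of the IL-6 and G-CSF kind in myeloid cells. SOCS1 and SOCS3 are made in response to such signals, bind the kinases or receptors and turn the signal down.

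The expression of Irf7 did not follow the knockout label. It was 23.5, 22.3 and 32.3 TPM in the WT c-kit- libraries, 5.31, 3.91 and 3.36 TPM in WT c-kit+, and in the labelled knockout 12.8, 5.97 and 7.95 TPM. The lowest labelled knockout library was thus above the highest WT c-kit+ library. Reads from the exons that the cassette leaves in place would count toward the gene, and exons were not analysed here, so the level of Irf7 does not check the label here. The study tested IRF7 in these leukemias by qRT-PCR and Western blot, which were not analysed here. Directions given for this genotype follow the label. Kit followed the sort, at 0.52 to 3.03 TPM in WT c-kit- and 50.7 to 85.7 TPM in both c-kit+ groups. It was higher in the labelled knockout than in WT c-kit+, at means of 80.5 and 53.5 TPM (log2 fold change 0.58, adjusted p = 0.0038). Ly6g, Ltf, S100a8 and the other neutrophil markers (11 genes) summed to 57875 to 113072 TPM in WT c-kit+, 6559 to 32271 in WT c-kit- and 1713 to 2689 in the labelled knockout. WT c-kit- replicate 3 held that 32271, far above the other two. The monocyte markers (6 genes) summed to 4895 to 6114 TPM in WT c-kit-, 2199 to 2584 in WT c-kit+ and 2629 to 3291 in the labelled knockout. In WT c-kit+ against WT c-kit-, 4 of the 11 neutrophil markers were called higher (8 without WT c-kit- replicate 3) and 1 lower, and all 6 monocyte markers lower. In the labelled knockout against WT c-kit+, 10 of the 11 neutrophil markers were lower, and 1 of the 6 monocyte markers was higher and 2 lower (0 and 1 without labelled knockout replicate 1). Among those 10, Cxcr2 was under 1 TPM in every labelled knockout library and passed the filter of 1 TPM only through WT c-kit+. Of all genes tested, 14.0% were higher and 27.6% lower in WT c-kit+ against WT c-kit-. In the labelled knockout against WT c-kit+, 31.9% were higher and 16.1% lower. No marker of these 2 lists was at 0 in every library of a group. Both lists moved with the groups compared, and their part in the results was not tested. Megakaryocyte markers (5 genes, 2 of them tested) summed to 0.80 to 2.57 TPM in WT c-kit-, 9.69 to 11.8 in WT c-kit+ and 9.26 to 13.01 in the labelled knockout. Of these, Gp9 was higher in WT c-kit+ than in WT c-kit- (2.60, adjusted p = 4.9e-05) and Itga2b in the labelled knockout than in WT c-kit+ (0.83, adjusted p = 0.0138), and their part in the results was not tested. Gp9, under 1 TPM in every WT c-kit- library, passed the filter of 1 TPM only through WT c-kit+. B cell markers summed to 26.4 to 38.1 TPM and erythroid markers to 3.74 to 18.1 TPM, with overlapping groups. T, NK, plasmacytoid dendritic, endothelial and stromal cell markers summed to at most 5.94 TPM a list in any library. In bulk libraries, fewer cells of a type and less RNA per cell cannot be told apart.

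The upstream sequences of the 4 receptor chains are shown because 3 of these genes share a cluster on chromosome 16 and were lower in WT c-kit+ than in WT c-kit-, and the fourth lies elsewhere and was not called. They are the 250 bases before the RefSeq start of each gene on the GRCm38.p6 build, all on the plus strand, written 5′ to 3′. Capitals mark a match to the STAT binding motif GAS (TTCNNNGAA), the interferon response motif core (a repeat of GAAA after any 2 bases) or a PU.1 motif (GAGGAAGT), each searched on both strands.
Ifnar2, chr16:91372533-91372782: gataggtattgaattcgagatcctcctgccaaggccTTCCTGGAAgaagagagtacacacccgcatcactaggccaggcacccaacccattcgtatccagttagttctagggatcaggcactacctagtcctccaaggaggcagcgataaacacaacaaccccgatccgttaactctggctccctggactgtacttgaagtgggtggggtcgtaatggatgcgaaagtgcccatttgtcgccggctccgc
Ifnar1, chr16:91484965-91485214: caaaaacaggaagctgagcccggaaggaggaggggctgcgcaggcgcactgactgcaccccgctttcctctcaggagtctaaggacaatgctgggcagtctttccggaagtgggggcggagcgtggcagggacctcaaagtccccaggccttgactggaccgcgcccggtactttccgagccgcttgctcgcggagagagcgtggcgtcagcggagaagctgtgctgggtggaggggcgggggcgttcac
Ifngr2, chr16:91546809-91547058: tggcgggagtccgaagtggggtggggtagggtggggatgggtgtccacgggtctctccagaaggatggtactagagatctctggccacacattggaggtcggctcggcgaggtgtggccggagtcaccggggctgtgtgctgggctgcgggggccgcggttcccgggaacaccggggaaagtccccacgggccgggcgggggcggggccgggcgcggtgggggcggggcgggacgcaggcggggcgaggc
Ifngr1, chr10:19591699-19591948: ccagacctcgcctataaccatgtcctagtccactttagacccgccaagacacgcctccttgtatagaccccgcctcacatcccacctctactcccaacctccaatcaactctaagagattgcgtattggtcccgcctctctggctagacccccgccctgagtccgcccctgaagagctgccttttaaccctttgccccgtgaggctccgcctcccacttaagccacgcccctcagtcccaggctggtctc

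The SOCS genes are shown because each holds a motif of the pathway. The Socs1 stretch runs from 100 to 51 bases before its start on the minus strand, and its capitals span 2 interferon response cores that overlap by 4 bases, at 83 to 74 and 77 to 68 bases before the start. The Socs3 stretch is on the minus strand of chromosome 11, and its capitals are a GAS match at 154 to 146 bases before the RefSeq start, inside the longer GENCODE model of the gene.
Socs1, chr16:10785587-10785636: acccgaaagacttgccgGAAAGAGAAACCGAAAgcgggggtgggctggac
Socs3, chr11:117969501-117969530: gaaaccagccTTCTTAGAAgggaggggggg
Of 32544 upstream windows of this length, 7.04% held a GAS match, 2.98% the interferon response core and 2.46% the PU.1 motif. Among the 10 genes, Ifnar2, Socs1 and Socs3 held a match and the other 7 held none of these letters. The GAS match in Ifnar2 lies 214 to 206 bases before its start. A match describes the letters only and was not tested as a binding site.

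**Figure D1:**
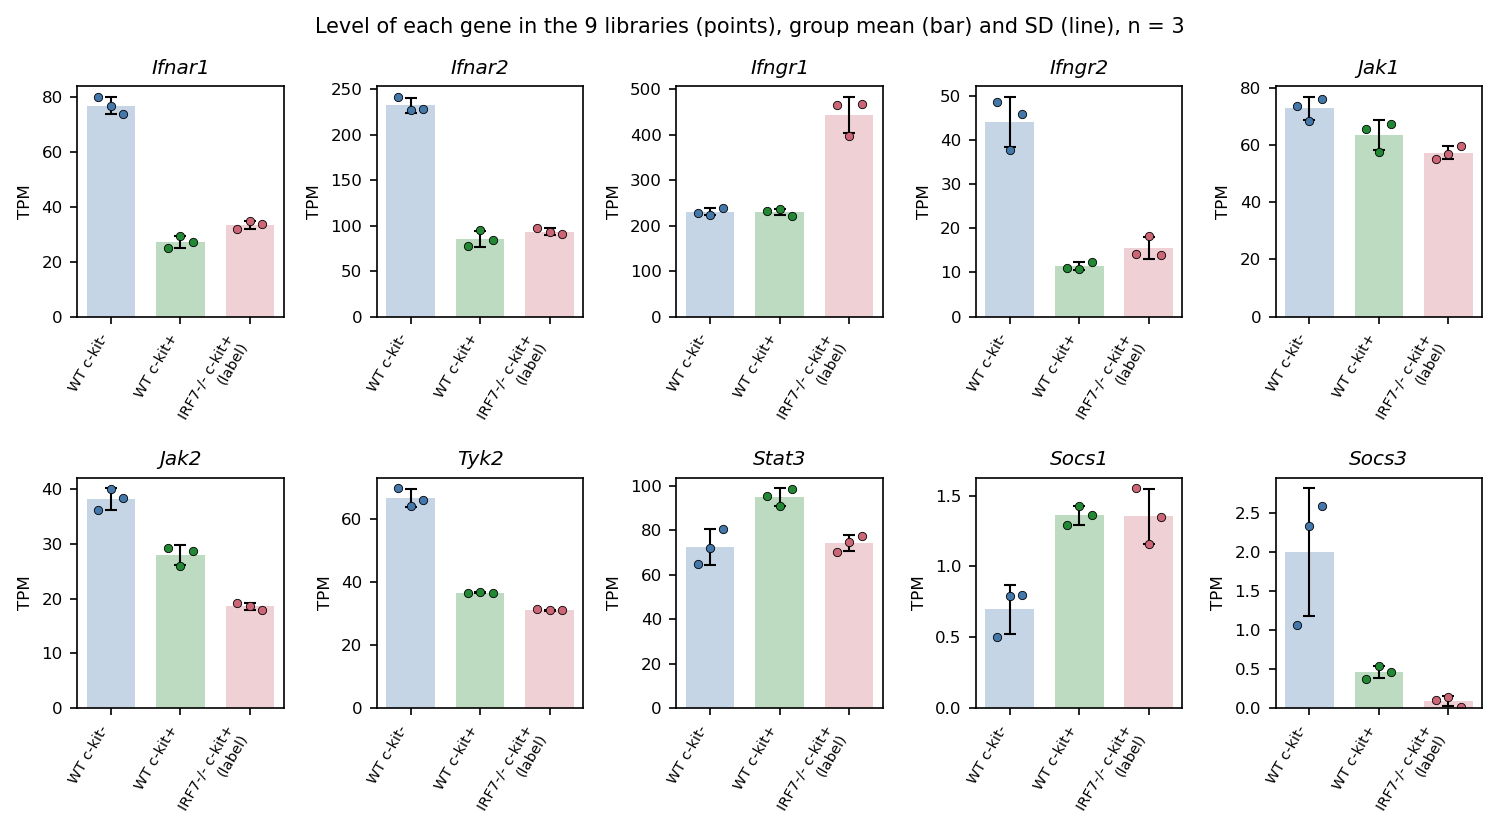
Level (TPM, linear axis from 0) of each of the 10 genes in the 9 libraries. Points are libraries, bars are group means and lines are SD (n = 3). Ifnar1, Ifnar2, Ifngr2 and Tyk2 were highest in WT c-kit-, Ifngr1 was highest in the labelled knockout libraries, and Socs1 and Socs3 lay under 3 TPM in all 9 libraries.

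The first comparison asks how c-kit+ leukemia cells differ from c-kit- cells of the same WT leukemia. The type I interferon receptor fell in both chains. Ifnar1 was at 80.0, 76.8 and 73.8 TPM in WT c-kit- and at 24.9, 29.2 and 27.2 TPM in WT c-kit+, 2.84-fold lower by group means. Its log2 fold change, on the log2(TPM + 1) scale used for all tests, was −1.47 ± 0.08 (SE, n = 3 and 3; limma adjusted p = 3.2e-05). The groups lay far apart, with the highest c-kit+ library well under the lowest c-kit- library. Ifnar2, the more abundant chain, was at 241, 227 and 228 TPM in WT c-kit- and at 77.5, 95.2 and 84.8 TPM in WT c-kit+. That was a log2 fold change of −1.43 ± 0.08 (SE; adjusted p = 4.5e-05).

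The interferon gamma receptor split. Ifngr2, the signal-transducing chain, was at 48.6, 37.7 and 45.8 TPM in WT c-kit- and at 11.0, 10.9 and 12.5 TPM in WT c-kit+, a log2 fold change of −1.85 ± 0.11 (SE; adjusted p = 5.4e-05). This was the largest of the 10 genes' changes in this comparison on the log2(TPM + 1) scale, while by group means Socs3 fell more (4.32-fold against 3.85-fold). Ifngr1, the ligand-binding chain, was at 229, 224 and 239 TPM in WT c-kit- and at 233, 237 and 222 TPM in WT c-kit+. Those values overlapped, with a log2 fold change of −0.00 ± 0.06 (SE; adjusted p = 0.996). With each library centred on its median gene the log2 difference in Ifngr1 was 0.16, and under quantile normalization it was 0.18 and passed the test (adjusted p = 0.0336), so its direction depends on the scaling.

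The kinases and Stat3 differed less. Tyk2, the kinase on IFNAR1, was at 69.7, 64.2 and 66.0 TPM in WT c-kit- and at 36.5, 37.0 and 36.6 TPM in WT c-kit+, and fell by 0.84 on the log2 scale (SE 0.06, adjusted p = 8.1e-05). Jak2, the kinase on IFNGR2, was at 36.1, 40.0 and 38.4 TPM and then 29.2, 25.9 and 28.7 TPM, and fell by 0.44 (SE 0.08, adjusted p = 0.0043). Jak1, which both receptors share, was at 73.7, 68.3 and 76.1 TPM and then 65.4, 57.4 and 67.2 TPM. The c-kit+ libraries were all lower, but the difference of −0.20 did not pass (SE 0.08, adjusted p = 0.0938). Stat3 went the other way, from 64.8, 72.1 and 80.8 TPM to 95.4, 91.0 and 98.7 TPM, a rise of 0.39 (SE 0.09, adjusted p = 0.0127).

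Both SOCS genes were low, and they moved in opposite directions. Socs3, the brake on IL-6 and G-CSF receptor signaling, was at 1.07, 2.34 and 2.59 TPM in WT c-kit- and at 0.38, 0.54 and 0.47 TPM in WT c-kit+. It fell by 1.00 on the log2 scale (SE 0.24, adjusted p = 0.0149), and without WT c-kit+ replicate 1 the adjusted p was 0.0516. Socs1, the brake on interferon signaling, was at 0.50, 0.79 and 0.80 TPM and then 1.29, 1.43 and 1.36 TPM, a rise of 0.48 (SE 0.15, adjusted p = 0.0405). Socs1 fell under the filter when a WT c-kit+ library was left out, and its call was lost without any one of the WT c-kit- libraries (adjusted p of 0.113, 0.0797 and 0.0660 without replicates 1, 2 and 3). Levels this low are near the filter of 1 TPM, and the pseudocount of 1 shrinks their fold changes.

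In all, 2 of the 10 genes were called higher in WT c-kit+ and 6 lower, against 14.0% and 27.6% of the 13261 genes tested. Socs1, under 1 TPM in every WT c-kit- library, passed the filter only through WT c-kit+, where it was higher. Socs3, under 1 TPM in every WT c-kit+ library, passed only through WT c-kit-. At the study's thresholds, which add a minimum log2 fold change of 1 in size, none was higher and Ifnar1, Ifnar2 and Ifngr2 were lower, against 4.83% and 9.61% of all genes. The median log2 fold change was −0.64 over the 10 genes and −0.08 over all genes tested. Without WT c-kit- replicate 3, the library high in neutrophil markers, 9 of the 10 genes were tested, with 1 called higher and 5 lower. This was not particular to that library: Socs3 fell under the filter, and the Socs1 call was lost, whichever WT c-kit- library was left out. With 3 libraries against 3 the exact two-sided permutation test of a single gene cannot go below p = 0.1, and 9 of the 10 genes reached that value here.

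The second comparison sets the labelled knockout against WT c-kit+ cells. These leukemias were started from cells of separate WT and IRF7-/- mice, so genotype and leukemia cannot be told apart here. The clearest difference was in Ifngr1. It was at 464, 397 and 468 TPM in the labelled knockout libraries against 233, 237 and 222 TPM in WT c-kit+, a 1.92-fold rise by group means with no overlap. The log2 fold change was 0.94 ± 0.08 (SE, n = 3 and 3; limma adjusted p = 2.5e-04), and over 14 alternatives it ran from 0.83 to 1.01 with an adjusted p of at most 0.0027. Its partner Ifngr2 was at 14.2, 18.3 and 13.9 TPM against 11.0, 10.9 and 12.5 TPM, a rise of 0.40 ± 0.12 (SE; adjusted p = 0.0371). This call was lost in 9 of the 14 alternatives, among them quantile normalization and the leaving out of any one of 5 libraries.

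Of the type I receptor chains, Ifnar1 was at 31.8, 34.8 and 33.7 TPM in the labelled knockout against 24.9, 29.2 and 27.2 TPM, a rise of 0.30 ± 0.08 (SE; adjusted p = 0.0213). That call was lost with median centring (adjusted p = 0.0550), with quantile normalization (adjusted p = 0.0658), and without WT c-kit+ replicate 1 or 3 or labelled knockout replicate 2 or 3 (adjusted p of 0.0568 to 0.0661). The median gene itself was 0.12 higher in the labelled knockout. Relative to it, Ifnar1 was 0.18 higher, Ifngr2 0.28 higher and Ifngr1 0.82 higher. Ifnar2 was at 97.6, 92.7 and 90.4 TPM against 77.5, 95.2 and 84.8 TPM, overlapping values that did not pass (0.13 ± 0.08 SE, adjusted p = 0.244). Ifnar1, Ifnar2 and Ifngr2 thus stayed well under their WT c-kit- levels in both c-kit+ groups.

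Jak2, Tyk2 and Stat3 fell. Jak2 was at 19.2, 18.7 and 17.9 TPM against 29.2, 25.9 and 28.7 TPM, and fell by 0.56 on the log2 scale (SE 0.07, adjusted p = 0.0015). Stat3 was at 70.3, 74.9 and 77.3 TPM against 95.4, 91.0 and 98.7 TPM, and fell by 0.35 (SE 0.06, adjusted p = 0.0036). Tyk2 was at 31.3, 31.1 and 31.0 TPM against 36.5, 37.0 and 36.6 TPM, a small but very even difference that fell by 0.23 (SE 0.05, adjusted p = 0.0121). These 3 calls held in all 14 alternatives. Jak1 was at 55.2, 56.8 and 59.8 TPM against 65.4, 57.4 and 67.2 TPM. Those values overlapped, and the difference of −0.14 did not pass (SE 0.08, adjusted p = 0.161). It did pass under quantile normalization (−0.24, adjusted p = 0.0367) and without WT c-kit+ replicate 2 (−0.21, adjusted p = 0.0322).

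Socs1 was alike in both c-kit+ groups, at 1.55, 1.16 and 1.35 TPM in the labelled knockout and 1.29, 1.43 and 1.36 TPM in WT c-kit+ (log2 fold change −0.01 ± 0.14 SE, adjusted p = 0.972). Socs3 was at 0.11, 0.14 and 0.02 TPM against 0.38, 0.54 and 0.47 TPM. The groups did not overlap, but all 6 values lay under the filter of 1 TPM, so Socs3 was not tested here. With no filter its log2 fold change was −0.43 ± 0.07 (SE; adjusted p = 0.0089). Of the 9 genes tested, 3 were called higher and 3 lower, against 31.9% and 16.1% of the 13238 genes tested. None reached the study's thresholds, which 6.30% of all genes passed upward and 5.39% downward.

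**Figure D2:**
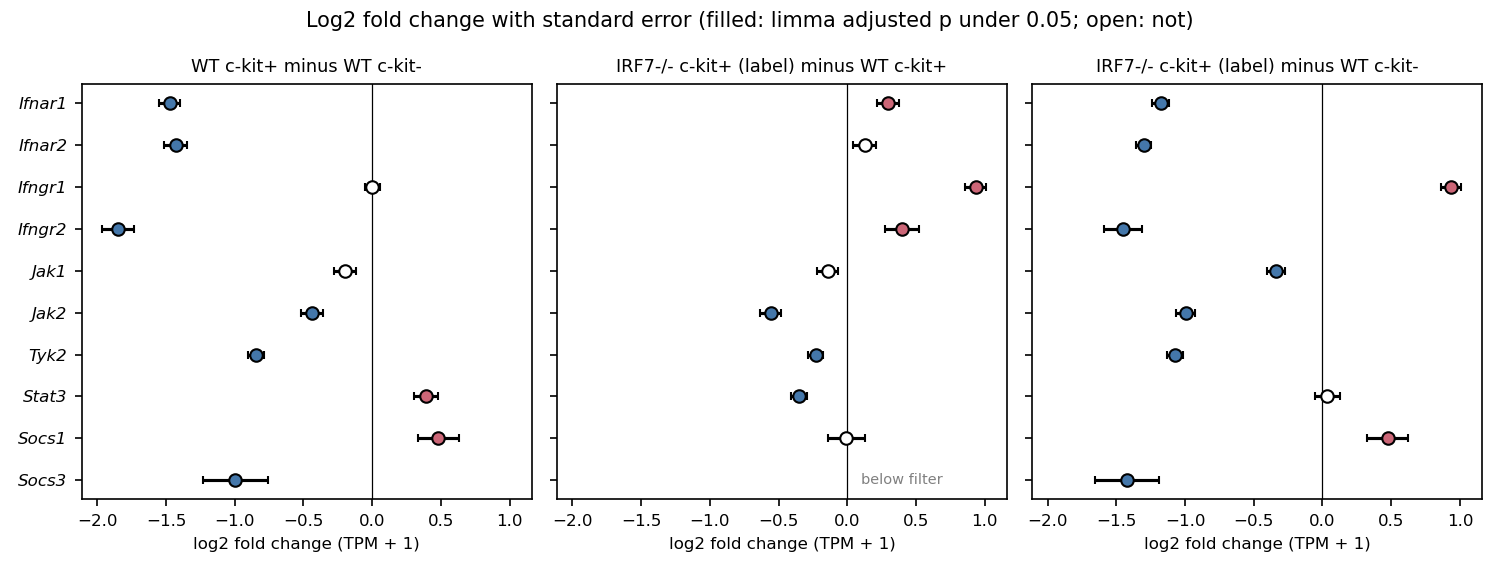
Log2 fold change of each gene on the log2(TPM + 1) scale (x axis) in the 3 comparisons, with its SE. Filled points passed the limma test (red higher, blue lower) and open points did not. Ifngr1 lay at 0.94 in both comparisons of the labelled knockout and at −0.00 between the WT groups, and Socs3 was below the filter in the middle panel.

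Between the labelled knockout and WT c-kit-, genotype and c-kit differ together and cannot be told apart. This comparison shares libraries with each of the other two. Here 2 of the 10 genes were called higher and 7 lower, against 30.7% and 28.7% of the 13510 genes tested. Socs1 and Socs3 again passed the filter only through the group where each was higher. At the study's thresholds, none was higher and 5 were lower, against 8.40% and 11.9% of all genes. Those 5 were Ifnar1 (−1.18 ± 0.06 SE), Ifnar2 (−1.30 ± 0.05), Ifngr2 (−1.45 ± 0.14), Tyk2 (−1.07 ± 0.06) and Socs3 (−1.42 ± 0.23). Jak2 (−0.996 ± 0.07) and Jak1 (−0.34 ± 0.06) were also lower. Ifngr1 was higher by 0.94 ± 0.08 (SE; adjusted p = 9.2e-05) and Socs1 by 0.47 ± 0.15 (SE; adjusted p = 0.0316), and the Socs1 call was lost without any one of the WT c-kit- libraries. Stat3 values overlapped (0.04 ± 0.09 SE, adjusted p = 0.752), so that its level was highest in WT c-kit+ alone.

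The order of the groups therefore differed from gene to gene. Jak2, Tyk2 and Socs3 had WT c-kit- highest and the labelled knockout lowest, with no overlap between neighbours. Ifnar1 and Ifngr2 had WT c-kit- highest and WT c-kit+ lowest, and Ifnar2 had the c-kit+ groups overlapping under WT c-kit-. Ifngr1 had the labelled knockout alone on top of the WT groups, whose values overlapped. Socs1 had WT c-kit- alone at the bottom.

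Most of the receptor genes are neighbours. On GRCm38, Ifnar2 (chr16:91372783-91405589), Il10rb (chr16:91406164-91425834), Ifnar1 (chr16:91485238-91507441) and Ifngr2 (chr16:91547072-91565623) lie on the plus strand within 193 kb, while Ifngr1 is on chromosome 10 (chr10:19591949-19610229). Il10rb encodes a chain of the IL-10 and interferon lambda receptors. All 4 genes of the cluster were lower in WT c-kit+ than in WT c-kit-, with Il10rb at 99.2, 95.5 and 88.7 TPM against 41.8, 45.9 and 45.9 TPM (log2 fold change −1.07, adjusted p = 6.7e-05). The next genes along the chromosome, chosen by position after their values were seen, did not share this. Tmem50b was at a mean of 61.2 against 65.6 TPM (log2 fold change 0.10, adjusted p = 0.483), and Gart, a purine synthesis enzyme, at 55.6 against 66.5 TPM (0.26, adjusted p = 0.0779). Son rose by 0.30 (adjusted p = 0.0033). Farther out, Itsn1 fell by 1.19 (adjusted p = 0.0065), and between Il10rb and Ifnar1 the noncoding A930006K02Rik fell by 1.19 as well (adjusted p = 0.0037).

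The cluster did not move as one in the labelled knockout. Il10rb was at 102, 95.9 and 102 TPM there, back at its WT c-kit- level and 1.15 higher on the log2 scale than in WT c-kit+ (adjusted p = 5.3e-05). Ifnar2, its neighbour less than 1 kb away, stayed at 40.3% of its WT c-kit- mean, Ifnar1 at 43.5% and Ifngr2 at 35.2%, while Il10rb stood at 106%. Ifngr1 stood at 192% of that mean. A gene model named Gm21970 overlaps Ifnar2 and Il10rb on the same strand and was at 0 TPM in all 9 libraries.

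**Figure D3:**
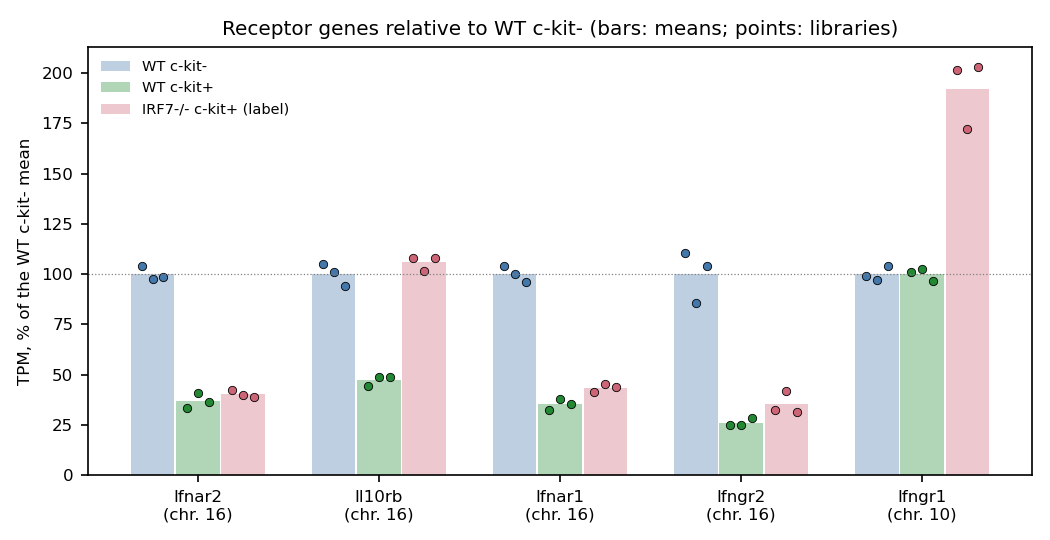
Level of the 4 receptor genes of the chromosome 16 cluster, in their order along it, and of Ifngr1 on chromosome 10, as a percent of the WT c-kit- mean (y axis from 0). Bars are group means and points are libraries (n = 3). The cluster genes stood at 26.0% to 47.1% in WT c-kit+, and Il10rb alone of them stood at 106% in the labelled knockout libraries.

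Ratios within a library do not depend on its scaling. The ratio of Ifngr1 to Ifngr2 was 4.71 to 5.93 in WT c-kit-, 17.9 to 21.8 in WT c-kit+ and 21.7 to 33.7 in the labelled knockout, computed from TPM, which is per length. On the log2(TPM + 1) scale the mean log2 ratio was 2.37 ± 0.16, 4.22 ± 0.14 and 4.76 ± 0.34 (SD, n = 3 each). The ratio of Ifnar1 to Ifnar2 was 0.323 to 0.339 in WT c-kit-, 0.307 to 0.321 in WT c-kit+ and 0.326 to 0.375 in the labelled knockout. By these TPM ratios WT c-kit+ lay below both other groups, which overlapped. On the log2(TPM + 1) scale the WT groups overlapped as well. Jak1 to Jak2 was 1.71 to 2.04 in WT c-kit-, 2.22 to 2.34 in WT c-kit+ and 2.87 to 3.34 in the labelled knockout, in steps with no overlap. Jak1 to Tyk2 was 1.06 to 1.15 in WT c-kit- and 1.55 to 1.93 in the c-kit+ groups, which overlapped. Socs3 to Socs1 was 2.14 to 3.24 in WT c-kit-, 0.295 to 0.378 in WT c-kit+ and 0.0148 to 0.121 in the labelled knockout. Socs3 to Stat3 was 0.0165 to 0.0325 in WT c-kit-, 0.00398 to 0.00593 in WT c-kit+ and 2.6e-04 to 0.00187 in the labelled knockout, again with no overlap. Between the c-kit+ groups its log2 ratio differed by −0.071 with the pseudocount of 1, where values overlapped, and by −1.26 with a pseudocount of 0.1. Each difference between groups was tested for 6 ratios and 3 pairs of groups, 18 exact two-sided permutation tests in all, and none went below p = 0.1 (Benjamini-Hochberg adjusted p = 0.129 at the lowest).

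Summed over Jak1, Jak2, Jak3 and Tyk2, JAK transcripts were at a mean of 199 TPM in WT c-kit-, 159 in WT c-kit+ and 132 in the labelled knockout, with no overlap. Jak1 made up 36.5%, 39.9% and 43.3% of them and Tyk2 33.5%, 23.1% and 23.6%. Socs1 and Socs3 were minor members of their family: Socs1 was 0.991%, 2.83% and 3.02% and Socs3 2.87%, 0.960% and 0.200% of all SOCS and Cish transcripts, most of which were Socs6, Socs4 and Socs7.

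Of the ligands, 21 interferon genes were in the table. Of these, 16 were at 0 in all 9 libraries and none reached 1 TPM, with 0.81 TPM the highest value. Osm, an IL-6 family cytokine, was at 42.7, 113 and 122 TPM in WT c-kit-, at 49.2, 80.2 and 27.0 TPM in WT c-kit+ and at 8.65, 5.43 and 13.5 TPM in the labelled knockout, where it fell by 2.33 on the log2 scale against WT c-kit+ (adjusted p = 0.0052).

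The other cytokine receptor chains of this pathway fell widely in WT c-kit+ against WT c-kit-, with 10 of 14 tested genes lower and none higher, against 27.6% and 14.0% of all genes, and a list median of −1.09. Without WT c-kit- replicate 3, 10 of 14 were lower and 2 higher. The 4 largest falls were in Il10ra, the ligand-binding IL-10 chain (−3.18), Lifr (−2.89), Il6st, the shared gp130 chain (−2.71), and Il6ra (−2.28). Csf2ra (−0.40) and Csf3r (0.39) did not pass. Against WT c-kit+, the labelled knockout had 5 of 13 higher and 5 lower, against 31.9% and 16.1% of all genes. Il2rg, the common gamma chain, rose by 1.71, while Ifnlr1 (−2.46), Il10ra (−1.80) and Il6st (−1.62) fell. Il6st was at 1.33, 3.94 and 1.09 TPM there against 5.53, 9.72 and 9.06 TPM. Ifnlr1, under 1 TPM in every labelled knockout library, passed the filter only through WT c-kit+.

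Of 7 other JAK and STAT genes, counting Irf9, the partner of STAT2, 2 were higher and 5 lower in WT c-kit+ against WT c-kit-. Over all genes the shares were 14.0% and 27.6%. Stat4 rose by 1.28, and Irf9 (−1.09), Stat5b (−0.76) and Stat6 (−0.68) fell. Irf9 (0.91) and Stat5a (0.59) were higher and Jak3 (−0.28) lower in the labelled knockout against WT c-kit+. That was 2 and 1 of the 7, against 31.9% and 16.1% of all genes. Irf9 was at 79.7, 36.0 and 42.2 TPM there, and was 0.57 higher without replicate 1 (adjusted p = 0.0105). Its call was lost with no filter (adjusted p = 0.0757) and without any one of the WT c-kit+ libraries (adjusted p of 0.0605 to 0.0829). Without labelled knockout replicate 1 the Jak3 call was lost too. Stat5a overlaps Stat3 on the other strand, and the library kit does not mark strand, so reads from the shared stretch cannot be told apart. Jak1 and Tyk2 also overlap genes on the other strand. Stat2 did not pass in the labelled knockout against WT c-kit+ (0.25, adjusted p = 0.116).

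Among the other SOCS genes, Cish, a brake induced by STAT5, fell by 1.17 in the labelled knockout (1.08, 1.21 and 1.15 TPM against 4.06, 3.19 and 4.27 TPM, adjusted p = 0.0010), and the other 4 tested did not pass. Of all genes, 16.1% were lower there. Socs6 (−1.02) and Socs7 (−0.37) were the 2 of 5 lower in WT c-kit+ against WT c-kit-, against 27.6% of all genes. Of 12 further brakes, such as phosphatases and adaptors, 8 were lower and 1 higher in that comparison (7 and 0 of 11 without WT c-kit- replicate 3). Over all genes the shares were 27.6% and 14.0%. The largest falls were in Usp18 (−1.85), which holds back IFNAR2, and in Sh2b3 (−1.39) and Ptprc (−1.27). Against WT c-kit+, 2 rose and 1 fell in the labelled knockout, where 31.9% of all genes were higher and 16.1% lower. Usp18 rose by 3.11 (SE 0.63, adjusted p = 0.0073), at 45.0, 6.24 and 10.1 TPM against 0.92, 0.63 and 0.84 TPM. Without labelled knockout replicate 1, 0 of 11 tested were higher and 1 lower, with Usp18 under the filter.

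**Figure D4:**
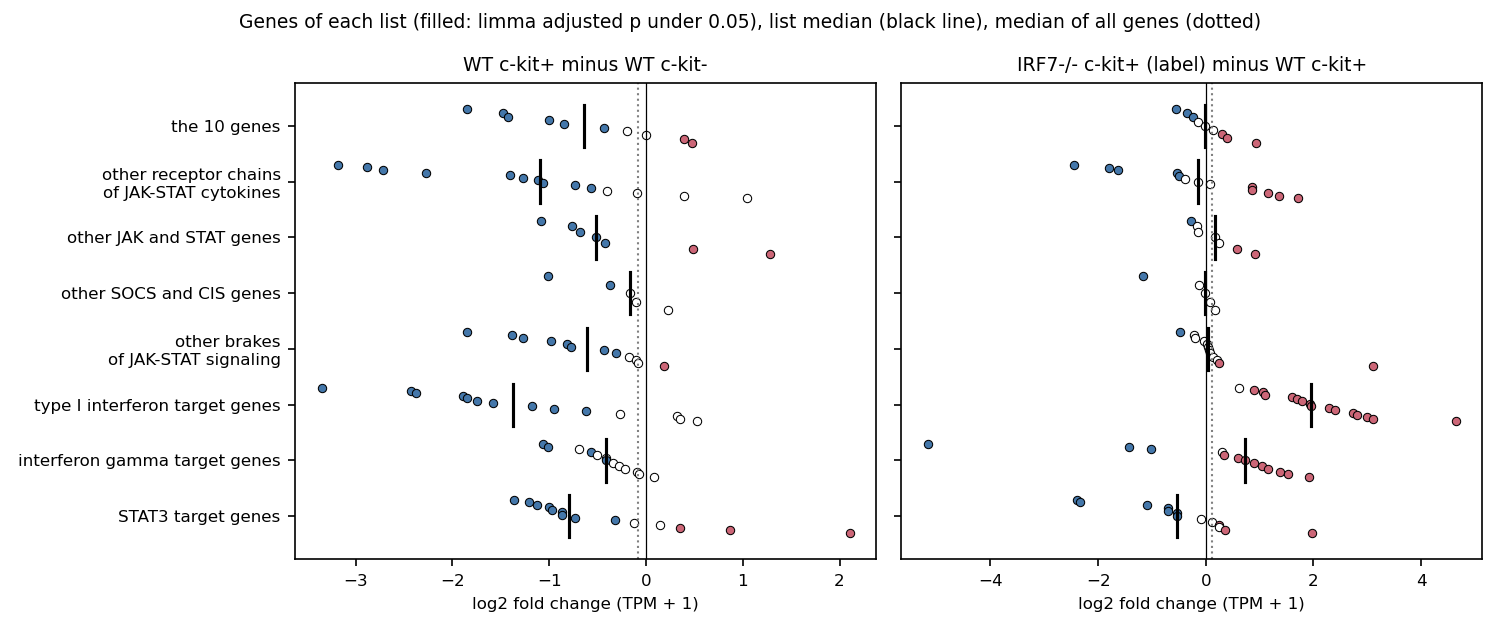
Log2 fold change of every tested gene of the 10 and of 7 further lists of the pathway (rows), in WT c-kit+ against WT c-kit- (left) and the labelled knockout against WT c-kit+ (right). Filled points passed the limma test, black lines are list medians and the dotted line is the median of all genes. Type I interferon targets had a median of −1.38 on the left and 1.95 on the right.

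The target genes of type I interferon were lower in WT c-kit+ than in WT c-kit- (10 of 14 tested lower, none higher, median −1.38). Of all genes, 27.6% were lower and 14.0% higher there. The targets were higher in the labelled knockout than in WT c-kit+ (15 of 16 higher, none lower, median 1.95, with 0.12 over all genes). Of all genes, 31.9% were higher and 16.1% lower. Ifit1, Oasl1, Rsad2, Rtp4 and Usp18 were under 1 TPM in every WT c-kit+ library and passed the filter only through the labelled knockout. Ifit3, Mx2 and Usp18 passed only through WT c-kit- in the other comparison. The list also holds Irf7, the targeted gene, and Usp18, which is counted among the brakes as well. These comparisons share the WT c-kit+ libraries. Without WT c-kit- replicate 3, 7 of 11 tested were lower and 2 higher in the first. Mx1, an antiviral GTPase, was at 28.8, 29.9 and 30.4 TPM in WT c-kit-, 1.88, 1.62 and 2.62 TPM in WT c-kit+ and, in the labelled knockout, 8.39, 2.02 and 2.50 TPM, a difference from WT c-kit+ that did not pass (0.62, adjusted p = 0.266). Rtp4 was at 97.0, 12.8 and 22.7 TPM there against 0.33, 0.19 and 0.30 TPM. One library was far above the others of its group. The list summed to 1135 TPM in replicate 1 of the labelled knockout and to 286 and 389.8 TPM in its other libraries. In WT c-kit+ the list summed to 118 to 120.3 TPM. Without replicate 1, 9 of 11 tested genes were higher and none lower, with a median of 1.07. Ifit1, Oasl1, Rsad2, Rtp4 and Usp18 fell under the filter there, so the medians of 1.95 and 1.07 are over different genes. Among the 10 genes, replicate 1 was the highest labelled knockout library in Socs1, Ifnar2, Jak2 and Tyk2, by small margins, and not in Ifngr1, Ifngr2 or Ifnar1. Without that library, Ifngr1 and Ifnar1 remained called higher and Jak2, Tyk2 and Stat3 lower.

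**Figure D5:**
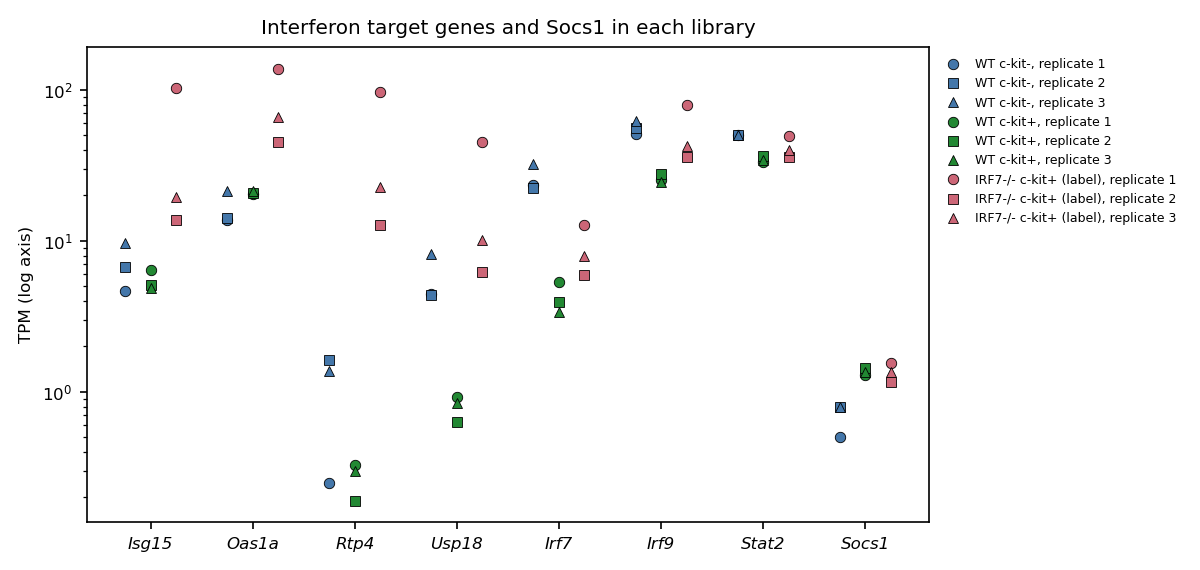
Level (TPM, log axis) of interferon target genes, their transcription factors and Socs1 in each library (color, group; marker shape, replicate number). Replicate 1 of the labelled knockout libraries was the highest of its group in each gene plotted, at 45.0 TPM for Usp18 against 6.24 and 10.1 TPM, while Socs1 ranged only from 0.50 to 1.55 TPM over all libraries.

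Interferon gamma targets were mixed. In WT c-kit+ against WT c-kit-, 4 of 13 were lower and none higher, against 27.6% and 14.0% of all genes. In the labelled knockout against WT c-kit+, 9 of 13 were higher and 3 lower, against 31.9% and 16.1% of all genes. A link between these calls and the level of Ifngr1 was not tested. Those higher included the guanylate binding proteins Gbp2 (1.91) and Gbp3 (1.52). Those lower included Cd74, the MHC class II invariant chain (−5.17), which was at 2.22, 4.24 and 2.84 TPM against 158, 136 and 137 TPM. Ciita (−1.43), the master activator of MHC class II genes, was also lower and passed the filter only through WT c-kit+. Without replicate 1, 8 of 13 were higher and 3 lower.

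More STAT3 targets were lower than higher in both comparisons. In WT c-kit+ against WT c-kit-, where Stat3 itself was higher, 9 of 14 were lower and 3 higher, against 27.6% and 14.0% of all genes. Cebpb (−1.36), Bcl3 (−1.21) and Junb (−1.12) were lower and Fgl2 (2.10) higher. Without WT c-kit- replicate 3, 6 of 13 were lower and 2 higher. In the labelled knockout against WT c-kit+, 7 of 13 were lower and 3 higher, against 16.1% and 31.9% of all genes. The largest falls were in the kinase Pim1 (−2.40) and cyclin D1, Ccnd1 (−2.34). Pim1 was at 7.60, 9.63 and 6.12 TPM against 39.4, 58.7 and 38.8 TPM. Fgl2, a secreted fibrinogen-like protein, rose by 1.97. Without labelled knockout replicate 1, 6 of 13 were lower and 1 higher. Il4ra is counted both here and among the cytokine receptor chains, and was lower in both comparisons (−0.74 and −0.53). Socs3, one of the 10 genes, is also in this list and counts among the 9 lower in the first comparison. It passed the filter there only through WT c-kit- and was not tested between the c-kit+ groups. Its level was the lowest of the 10 genes in both c-kit+ groups.

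The genes most like each of the 10 over the 9 libraries were found by Pearson's r of log2(TPM + 1) among 10284 genes with a mean of at least 5 TPM. This is a description, since the 9 libraries share 3 groups and any gene with the same group pattern scores high. Hip1 was most like Ifnar1 (r = 0.998) and Slc43a2 most like Ifnar2 (r = 0.997), both high in WT c-kit-. Crybg1 was most like Tyk2 (r = 0.999), Dna2 most like Ifngr2 (r = 0.996) and Ski most like Jak1 (r = 0.993). Ifngr1 was most like Il21r, a cytokine receptor chain that pairs with the common gamma chain (r = 0.997). Il21r was at 29.1, 20.6 and 27.1 TPM in the labelled knockout and 2.71 to 3.43 TPM in the 6 WT libraries. Stat3 was most like Il18rap (r = 0.977), Socs1 most like Prr12 (r = 0.989) and Jak2 most like A530040E14Rik (r = 0.994). Socs3 was most like Rsc1a1 (r = 0.982) and next Il4ra (r = 0.978), the IL-4 receptor chain.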

How the data were processed

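RNA of 9 libraries of sorted mouse leukemia cells (TruSeq RNA v2) was deposited by the authors as TPM of 55536 genes. The aligner, quantifier and build are not given in the sources used here, and all 55536 gene identifiers are in GENCODE M21 (GRCm38). Libraries summed to 987468 to 992231 TPM. Depth is lost in TPM, and the 3 libraries of a group are the only measure of precision. Libraries of a group correlated at 0.973 to 0.984. The labels do not tell separate mice apart, so p-values measure only the spread between these libraries, which may be technical. A TPM is a share of its library, so genes that take more of it leave less for the rest. The neutrophil markers (11 genes) took 57875 to 113072 TPM of a WT c-kit+ library and 6559 to 32271 TPM of a WT c-kit- library. Between these 2 groups the median gene moved by −0.08 on the log2 scale. How far the neutrophil genes lowered the values of other genes was not tested.

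Groups came from the labels. Each pair of groups was fitted with limma 3.58.1 (R 4.3.3; trend) on log2(TPM + 1), over genes that reached 1 TPM in 3 or more of its 6 libraries, with Benjamini-Hochberg adjustment over all genes tested and a threshold of 0.05. The functions were tested on simulated data. Ratios and sums used Python 3.11.15. Alternatives were quantile normalization, median centring, a pseudocount of 0.1, no filter, a filter of 5 TPM, all 9 libraries in one fit, a replicate block, no trend and each library left out.

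The 10 genes and the lists were chosen with earlier results of these data known. Named genes are the 10, Irf7 and Kit, and, per list and comparison, up to 4 passing genes with the largest change and up to 2 of the highest level that did not pass, with the 3 most alike by r searched for each of the 10. Genes near the cluster, and those added to the plot of interferon targets, were chosen after their values were seen. Upstream sequences are RefSeq (GRCm38.p6), found for all 10. A gene planned for these lists and ratios is not reported here, and the counts leave it out.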

Additional observations from a re-analysis of the deposited data

How the results depend on the processing

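The falls of Ifnar1, Ifnar2, Ifngr2, Jak2 and Tyk2 in WT c-kit+ and the changes of Ifngr1, Jak2, Tyk2 and Stat3 in the labelled knockout against WT c-kit+ kept direction and call under every alternative run. The count of the 10 genes called higher in the labelled knockout against WT c-kit+ was 3, and it was 1 under quantile normalization and 1 under median centring, since Ifnar1 and Ifngr2 no longer passed. It ran from 1 to 3 when a library was left out. Against WT c-kit-, 2 were called higher in WT c-kit+ and 1 with no filter, 1 with a filter of 5 TPM, 1 with a pseudocount of 0.1, 1 with the replicate block and 1 with any library left out, Socs1 being lost. In the labelled knockout against WT c-kit-, 2 were called higher and 1 with a filter of 5 TPM, 1 with the replicate block and 1 with any library left out. Of the other pathway genes, 6 were called higher in WT c-kit+ against WT c-kit-, and 3 to 8 with a library left out (3 without WT c-kit+ replicate 1 or 3). Values that did not pass changed sign. Socs1 in the labelled knockout against WT c-kit+ ran from −0.067 to 0.053 with a library left out (0.01 without WT c-kit+ replicate 2). Ifngr1 in WT c-kit+ against WT c-kit- was 0.18 under quantile normalization, 0.16 under median centring and −0.022 to 0.026 with a library left out (0.025 and 0.026 without replicate 3 of either group). In the labelled knockout against WT c-kit-, Stat3 ran from −0.042 (without WT c-kit- replicate 1) to 0.12 and Irf9, at −0.18 with all libraries, from −0.52 (called lower without labelled knockout replicate 1, adjusted p = 0.0142) to 0.044 (without replicate 2). The log2 ratio of Socs3 to Stat3 between the labelled knockout and WT c-kit+, with the pseudocount of 1, ran from −0.12 to 0.0056 (without labelled knockout replicate 3), and with a pseudocount of 0.1 it was −1.26. The cause of these changes was not tested. The labels do not say that a replicate number marks a shared mouse or day, and deviations of equal numbers correlated at −0.07 to 0.24. The replicate block also ended the Ifngr2 call in the labelled knockout against WT c-kit+ (adjusted p = 0.0689). Jak1 in that comparison was called lower under quantile normalization and without WT c-kit+ replicate 2.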
